A study of Artemia parthenogenetic lineage with 3 samples.

Results

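Peaks at gene 3' ends are the accessible regions that lie where an annotated gene stops. A merged peak was counted as such when it lay more than 3000 bp from the start of the gene it was assigned to and overlapped the window of 1000 bp either side of that gene's 3' end. The rule used positions alone and no measured signal. It found 1161 of the 108316 merged peaks (1.07%), assigned to 1006 of the 12002 listed genes on 732 contigs. Listed genes are those with at least 1 merged peak assigned to them, so shares of them are not shares of all annotated genes. Of these peaks, 582 belonged to genes on the plus strand and 579 to genes on the minus strand. By position, 184 lay over the end base itself, 530 lay wholly before it, inside the gene, and 447 lay wholly past it.

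*Artemia* is a brine shrimp whose embryos can stop development inside a cyst, and embryonic diapause termination (EDT) is the release from that arrest. ATAC-seq was performed on 3 replicates of the ArR_30min group, made of WT cysts of a parthenogenetic *Artemia* lineage taken whole at 30 min after EDT. The cysts came from Ebinur Lake, had been dehydrated and refrigerated to break diapause, and were rehydrated and reactivated in artificial seawater under constant light. The study describes the replicates as biological and its cysts as a single batch, so each SD given here covers the spread between samples of that batch. No other time point or untreated group was analysed here, and therefore peak classes were compared within each library. Whole cysts hold every cell type of the embryo, so fewer cells with an open site and a less open site in each cell cannot be told apart.

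In ATAC-seq, the Tn5 transposase cuts accessible DNA and attaches sequencing adapters to it, and read density therefore measures how open the chromatin is. In animals the most open sites of a genome are usually the starts of active genes, where the transcription machinery assembles on DNA free of nucleosomes. At the 3' end, the transcript is cleaved and polyadenylated and the polymerase is released. Open sites near gene ends have been described in other species at terminators, at enhancers and at starts of antisense or neighbouring transcripts. The ends used here are those of the deposited gene models. Among models of at most 600 bp, 467 of 622 (75.1%) had a length that was a multiple of 3, against 33.6% of models over 5000 bp. Models may therefore stop at the end of the coding sequence, and the true transcript end may lie further on.

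The 3 libraries held 53022296, 56882822 and 82440213 reads by the totals behind the deposited RPM values (reads scaled to the library total). Peaks at 3' ends took 77900, 78499 and 120945 of these reads in replicates 1, 2 and 3. They made up 1.21% of the reads in peaks in replicate 1 (95% Wilson interval 1.20 to 1.21), 1.24% in replicate 2 (1.23 to 1.25) and 1.24% in replicate 3 (1.23 to 1.25). The mean share was 1.23% ± 0.0188 (SD, n = 3), beside 1.11% of the length that all merged peaks cover. The median peak at a 3' end held 38, 39 and 62 reads, the lowest held 3, 2 and 11, and none was without reads. Intervals cover counting error only. Reads of a pair are not independent, so the intervals are too narrow if both mates were counted, as the library totals make likely.

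Among listed genes, merged peaks did not gather at 3' ends in the way they gathered at starts. Among the 9344 listed genes of at least 10 kb, 6776 peak midpoints of any assignment lay within 5 kb of a 3' end, a midpoint near several ends being counted at each. Of these, 1278 (18.9%, exact 95% interval 17.9 to 19.8) lay within 1 kb of the end, where an even spread would place 20%. Around the starts of the same genes, 4636 of 9748 midpoints (47.6%, 46.6 to 48.6) lay within 1 kb. Listed genes have a merged peak assigned to them by its nearest start, and genes without one are left out. That choice can raise the density around starts, and by how much was not tested. The share of the signal showed the same contrast, since the inner 1 kb held 18.1% ± 0.136 of the RPM around 3' ends and 57.6% ± 2.89 around starts (SD, n = 3). The bin of 0 to 500 bp past the end held 267 midpoints (exact Poisson interval 236 to 301), and the bin just before the end held 373 (336 to 413). The 16 bins farther than 1 kb from the end held 303 to 378 midpoints each, with a median of 344. The first 500 bp past a gene model thus held fewer peak midpoints than any of these bins, and the last 500 bp of the gene lay within their range.

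**Figure D1:**
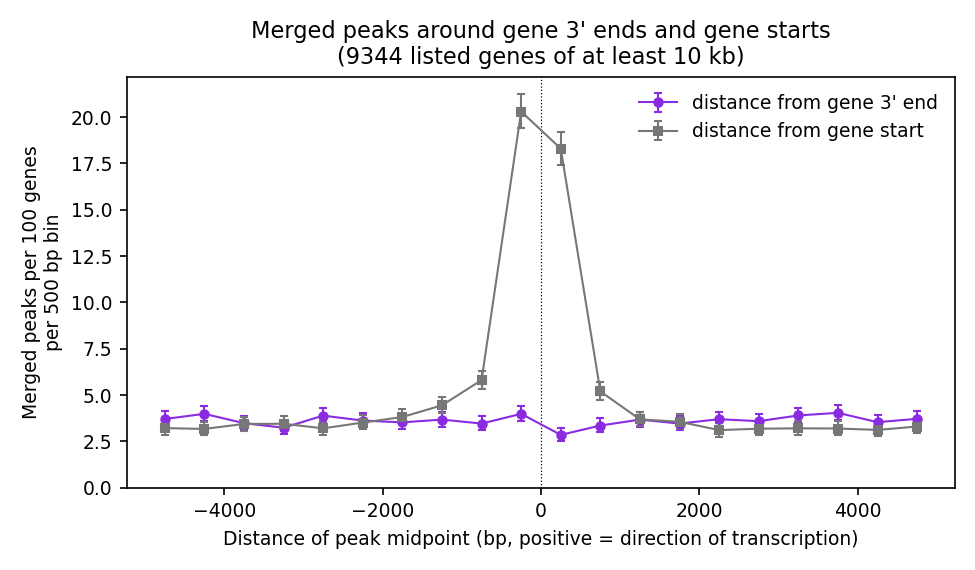
Merged peaks per 100 genes in bins of 500 bp (y axis) by distance of the peak midpoint from the gene's 3' end (purple circles) or start (grey squares), for 9344 listed genes of at least 10 kb; bars are exact 95% Poisson intervals and positive distances follow transcription. The line for 3' ends stays flat apart from the bin just past the end at 2.86 per 100 genes, whereas the start line reaches 20.3 and 18.3 per 100 genes in the bins next to the start.

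Only a minority of listed genes had a peak at the 3' end. Of the 10227 listed genes over 3 kb, 996 (9.74%) had at least 1 peak that met the rule. When a peak of any assignment at the end window was counted, 1558 genes (15.2%) had one. The share was lower the longer the gene, from 17.2% of genes under 10 kb to 14.0% at 10 to 30 kb, 9.50% at 30 to 60 kb and 6.07% above 60 kb. With peaks of any assignment the corresponding shares were 21.0%, 16.9%, 14.6% and 13.6%. The deposited table assigns a peak to the gene with the nearest start, and the own gene's start was the nearest listed start for all 1161 peaks. A peak at the end of a long gene was therefore dropped whenever another start was closer. For the same reason no 3' end peak lay within 1000 bp of another listed start, and the closest other start lay 5390 bp from the 3' end. Another listed gene's body overlapped 24 of the peaks, and 18 lay within 1000 bp of another listed gene's 3' end.

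In median level and width, peaks at 3' ends lay close to all merged peaks, but strong and broad peaks took a larger share of them than of the whole list. The median RPM was 0.736, 0.703 and 0.764 in replicates 1, 2 and 3, or 0.734 ± 0.0305 (SD, n = 3), beside 0.694 ± 0.0241 over all merged peaks. Averaged over replicates, the lower and upper quartiles of the peaks were 0.503 and 1.25 RPM, and the whole range ran from 0.177 to 44.9 RPM. The median width was 319 bp, with quartiles of 234 and 474 bp, against 317 bp over all merged peaks. Of the 1161 peaks, 145 (12.5%) reached 2 RPM, against 10.3% of all merged peaks. Strong signal of at least 10 RPM was seen at 9 peaks (0.775%, against 0.373% of all merged peaks), and 7 of these lay over the end base. Broad peaks of at least 1500 bp numbered 15 (1.29%, against 0.652%). Peaks merged from at least 6 summits made up 10.2%, against 10.7% of all merged peaks.

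Whether most of the peaks at 3' ends were open above the genome background at 30 min depended on the limit and on how reads were counted. The background was the mean read density outside peaks, and a peak was above it when its count had an upper-tail Poisson p under 1e-05. In all 3 replicates, 724 peaks (62.4%, exact 95% interval 59.5 to 65.2) passed this limit, against 59.7% of all merged peaks. The share at 3' ends was thus close to that of the whole list. With counts and background halved, as for 1 count per pair, it was 40.7% (all merged peaks 38.0%). The library totals make counting of both mates likely, and 40.7% would then be the closer value. With the background 2 times higher the share was 27.7% (24.9%), so whether most peaks passed depended on the limit. Unless stated otherwise, later counts of peaks above background use the limit without halving. A further 253 peaks passed in 2 replicates, 155 in 1 and 29 in none. The peak of lowest signal lay 672 bp before the end of evm.TU.ctg105.10 and had 0.189, 0.0527 and 0.291 RPM, from 9, 2 and 23 reads. The merged list holds more peaks than were called in these samples together, so some of its peaks come from outside those calls. Shares of all merged peaks include such peaks. They may have been called at other time points, since the sources used here do not say from which samples the list was merged.

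Compared with the other parts of genes, the signal at 3' ends sat just above that of gene bodies and far below that of starts. Gene body peaks (33904 peaks over 3000 bp from the start and ending more than 1000 bp before the 3' end) had a median of 0.674 ± 0.0210 RPM. The median log2 level at 3' ends was higher by 0.11, 0.10 and 0.13 in replicates 1, 2 and 3, a mean of 0.11 ± 0.02 (SD, n = 3) or 1.08-fold. Past-end peaks (4420 peaks with their nearest edge more than 1000 and up to 10000 bp past the end) had a median of 0.710 ± 0.0219 RPM. They were lower than the 3' end peaks by 0.03, 0.03 and 0.06 on the log2 scale, for a mean difference of 0.04 ± 0.02. All 3 replicates gave the same direction in each of these comparisons.

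Start peaks (3126 peaks over the start of their gene) had a median of 2.24, 1.58 and 1.73 RPM. The 3' end peaks were lower by 1.24 ± 0.24 on the log2 scale, so that the start level was 2.37 times the 3' end level. The median start peak was 639 bp wide. Per kb of peak width the levels were 2.23 ± 0.0878 RPM per kb at 3' ends and 2.96 ± 0.553 at starts, and the log2 difference shrank to -0.36 ± 0.22. The difference from gene body peaks shrank to 0.04 ± 0.02 per kb and that from past-end peaks to 0.02 ± 0.02 per kb, the latter with opposite signs in the replicates. Over 3 replicates, a sign-flip permutation test, exact and two-sided, cannot give a p below 0.25. This exact test gave p = 0.25 for each of these 3 comparisons on the RPM scale, or 0.286 after Benjamini-Hochberg adjustment over 8 class comparisons.

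**Figure D2:**
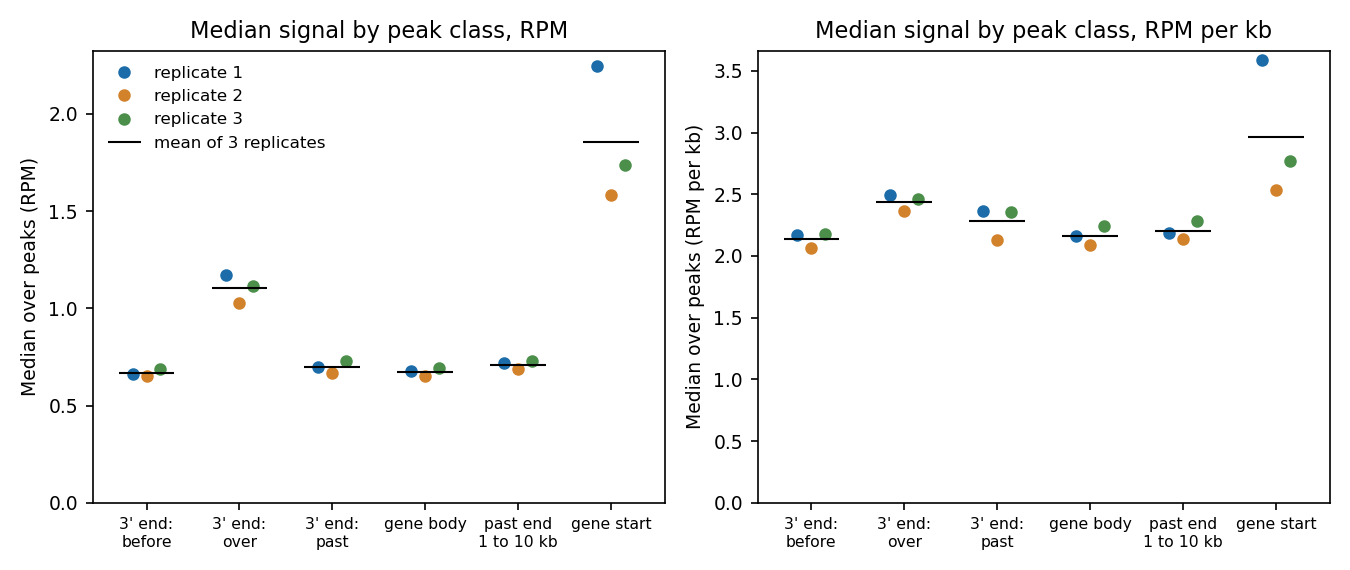
Median signal over the peaks of each class in RPM (left) and in RPM per kb of peak width (right), with 1 point per replicate and a black line for the mean of 3. On the left, peaks over the 3' end stand above the other 3' end, gene body and past-end peaks in all 3 replicates, and starts are highest; on the right, the gaps are narrower.

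Within the window, the peaks that covered the end base stood apart from those beside it. Their median signal was 1.17, 1.03 and 1.12 RPM, or 1.10 ± 0.0711 (SD, n = 3), against 0.665 ± 0.0180 for peaks wholly before the end and 0.698 ± 0.0299 for peaks wholly past it. The log2 difference between peaks over the end and all other 3' end peaks was 0.73, 0.61 and 0.59 in replicates 1, 2 and 3, a mean of 0.64 ± 0.07 or 1.56-fold (exact sign-flip permutation test, p = 0.25, adjusted 0.286). In all 3 replicates 149 of the 184 (81.0%, exact interval 74.6 to 86.4) were above background, as were 57.2% of those before the end and 60.9% of those past it. At least 2 RPM was reached by 46 of the 184.

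A wide peak covers any given base more often than a narrow one, and the peaks over the end had a median width of 446.5 bp against 304.5 bp before and 306 bp past it. Per kb of width, the difference between peaks over the end and the others was 0.14 ± 0.02 on the log2 scale. Averaged within 4 width classes, an alternative added after the data were seen, it was 0.15 ± 0.05. In single width classes it was 0.37 ± 0.10 above 234 and up to 317 bp and 0.29 ± 0.11 above 466 bp. In the other classes, up to 234 bp and above 317 up to 466 bp, it was -0.01 ± 0.16 and -0.05 ± 0.07. Width thus moved with most of the difference in RPM, and its part in it was not tested further.

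Beside the end base, the signal showed no single trend with distance from the end. In steps of 250 bp before the end, the median signal was 0.653 ± 0.0185, 0.621 ± 0.0828, 0.666 ± 0.0143 and 0.713 ± 0.00723 RPM from the nearest to the farthest. In the same steps past the end it was 0.754 ± 0.0298, 0.696 ± 0.0448, 0.678 ± 0.0175 and 0.664 ± 0.0860 RPM. Neighbouring steps overlapped in their replicate ranges, except the farthest step before the end, which lay above the step next to it. Replicate by replicate, the nearest step past the end also lay above the next step out in all 3. Past the end the means fell with each step, after the first within the spread between replicates. Peaks past the end were higher than those before it by 0.06 ± 0.02 on the log2 scale, in the same direction in all 3 replicates (exact sign-flip permutation test, p = 0.25, adjusted 0.286; comparison added after the data were seen). At the limit of the window, the 216 peaks over 800 and up to 1000 bp from the end had 0.697 ± 0.0489 RPM, and the 190 peaks just outside, up to 1200 bp from it, had 0.715 ± 0.0430. At the limit of distance from the start, the 40 peaks over 3000 and up to 4000 bp away had 0.887 ± 0.0801 RPM, and the 41 peaks at the 3' ends of their genes that lay over 2000 and up to 3000 bp from the start had 0.918 ± 0.0179.

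The 18 peaks near another gene's 3' end had a median of 0.802 ± 0.104 RPM. Their log2 difference from the other 1143 was -0.01, 0.08 and 0.25 in replicates 1, 2 and 3, with a mean of 0.10 ± 0.13 (exact sign-flip permutation test, p = 0.5, adjusted 0.5). This difference was smaller than the spread between replicates.

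The level at 3' ends varied with the length of the gene and with the place of the peak on its contig. Peaks of genes under 10 kb had a median of 0.897 ± 0.0419 RPM, and those of genes above 60 kb 0.656 ± 0.00958 RPM. Their median widths were 363.5 and 292.5 bp, and per kb of width the levels were 2.42 ± 0.0950 and 2.07 ± 0.0577 RPM per kb. The lengths between gave 0.777 ± 0.0493 RPM at 10 to 30 kb and 0.698 ± 0.0418 RPM at 30 to 60 kb. A place within 5 kb of a contig's first base or its last listed position was found for 144 of the 1161 peaks (12.4%), against 3.88% of all merged peaks, 0.469% of gene body peaks and 8.01% of past-end peaks. The last listed position is the last peak or gene end of a contig, so a 3' end can itself define it. Near a first base alone lay 66 of the 1161 peaks, against 1371 of all 108316 merged peaks, 60 of 33904 gene body peaks and 108 of 4420 past-end peaks. Those 144 at either edge had a median of 1.04 ± 0.0641 RPM and the other 1017 one of 0.702 ± 0.0361 RPM. They were also the wider peaks, at a median of 403.5 against 311 bp, and per kb of width the levels of 2.27 ± 0.0880 and 2.23 ± 0.0930 RPM per kb differed by less than their SD. Near contig edges, all merged peaks had 0.778 ± 0.00870 RPM, against 0.688 ± 0.0250 elsewhere. With peaks near edges left out of both classes, an alternative added after the data were seen, the log2 difference from gene body peaks was 0.05 ± 0.03 and that from past-end peaks 0.01 ± 0.01. The difference between peaks over the end and the others stayed at 0.64 ± 0.09.

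Within single genes, the start was usually more open than the end. A start peak was listed for 275 of the 1006 genes (27.3%), against 29.1% of all listed genes over 3 kb. In these 275 genes the median of the mean signal was 1.98 RPM at the start and 0.738 RPM at the strongest 3' end peak. The log2 difference was -1.41, -1.22 and -1.06 in replicates 1, 2 and 3, a mean of -1.23 ± 0.18 (exact sign-flip permutation test, p = 0.25, adjusted 0.286), and per kb of width -0.43 ± 0.18. The start was higher in all 3 replicates in 213 genes (77.5%), the 3' end in 24 (8.73%), and 38 were mixed. Across the 275 genes, the levels at the start and at the end of a gene went together only weakly, with a Pearson r of 0.289 on the log2 scale and a Spearman rho of 0.215. These points share their libraries, and genes are not independent replicates.

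**Figure D3:**
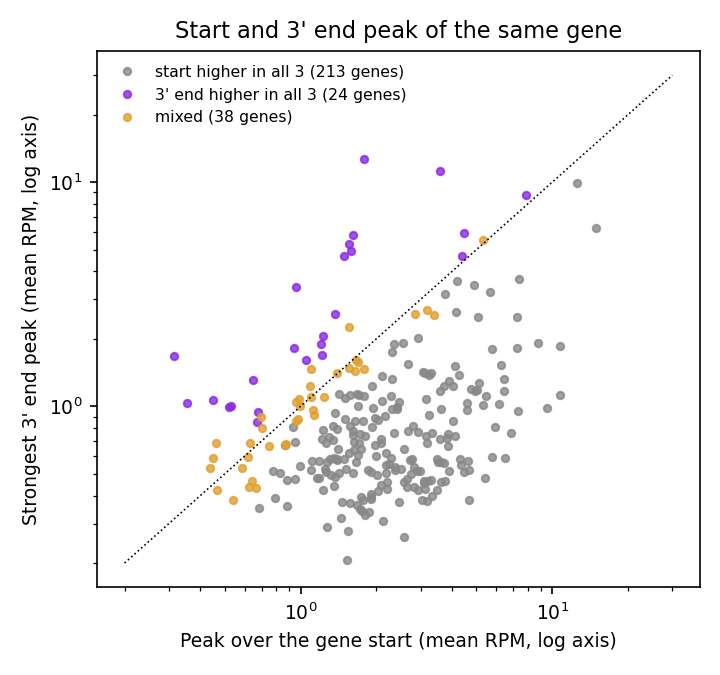
Mean signal over 3 replicates (RPM, log axes) of the strongest 3' end peak (y axis) against the start peak (x axis) of the same gene, with 1 point for each of 275 genes and a dotted line of equal signal. Most points lie below the line (grey, 213 genes with the start higher in all 3 replicates), and 24 genes in purple had the higher signal at the 3' end in all 3.

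Of the genes with a higher 3' end, evm.TU.ctg4122.2 showed the largest ratio. Its peak 51 bp before the end had 686, 741 and 987 reads, or 12.7 ± 0.588 RPM, and its start peak had 1.89, 1.85 and 1.61 RPM, a ratio of the means of 7.11. The next, evm.TU.ctg1142.9, had 1.30, 1.69 and 2.05 RPM over its end and 0.302, 0.387 and 0.255 RPM at its start, a ratio of 5.34. No gene product is annotated for these identifiers in the sources used here. In both genes the lowest replicate at the end exceeded the highest at the start.

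Against body peaks of the same gene, the 3' end did not keep its small lead. In the 738 genes with both kinds of peak, the log2 difference was -0.04, -0.07 and -0.06 in replicates 1, 2 and 3, with a mean of -0.06 ± 0.01 (exact sign-flip permutation test, p = 0.25, adjusted 0.286). The 3' end was higher in all 3 replicates in 236 genes, the body in 281, and 221 were mixed. With the median of a gene's body peaks in place of their mean, a choice added after the data were seen, the difference was -0.04 ± 0.02. Its sign was thus opposite to that of the pooled comparison, in which genes with many body peaks weigh more.

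Replicate 1 stood apart at gene starts but not at gene ends. The median log2 ratio of replicate 1 to the geometric mean of the other replicates was 0.44 at start peaks, where replicate 1 was the highest of the 3 for 84.8% of peaks. At 3' end peaks the same ratio was 0.02, and replicate 1 was the highest for 37.3% of peaks. These ratios are given as a description, with no test of their difference. The ratio was 0.04 at peaks over the end base, 0.01 at gene body peaks and -0.01 at past-end peaks. The distance between 3' ends and starts therefore depended on the replicate, from 1.10 on the log2 scale in replicate 2 to 1.52 in replicate 1.

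**Figure D4:**
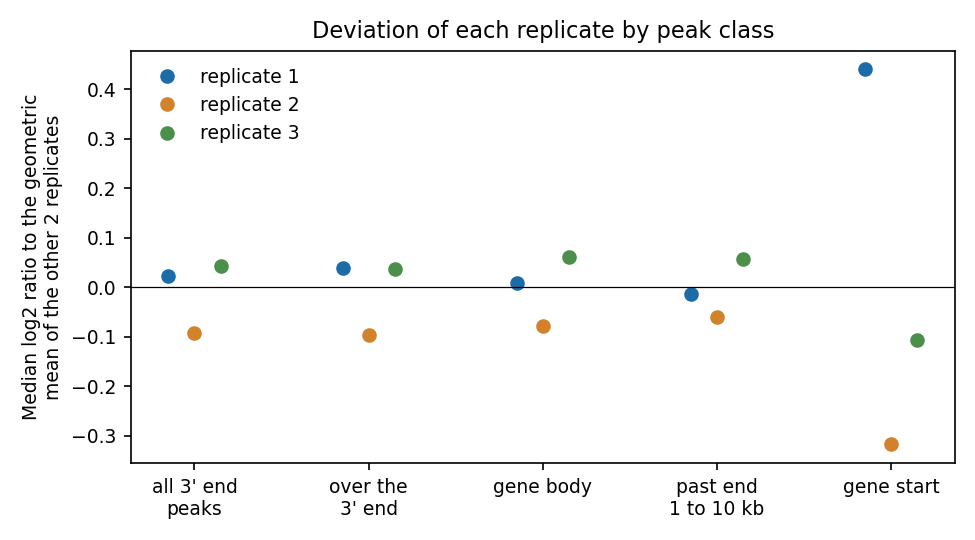
Median log2 ratio of each replicate to the geometric mean of the other replicates (y axis) by peak class (x axis), with 1 point per replicate and a line at equal signal. At starts replicate 1 lies at 0.44, whereas at 3' end, gene body and past-end peaks all replicates lie within 0.1 of the line.

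The signal of single peaks at 3' ends was reproducible between the libraries. Pearson r of log2 RPM over the 1161 peaks was 0.900, 0.905 and 0.916 for the replicate pairs 1 and 2, 1 and 3, and 2 and 3. Over the 184 peaks at the end base it was 0.925, 0.936 and 0.953. The points of each pair share their libraries and peak widths. The biological coefficient of variation is the spread beyond the Poisson error of the read counts. It was 0.181 at 3' end peaks (edgeR common dispersion), against 0.193 in gene bodies and 0.208 at starts. Without replicate 1 these values were 0.156, 0.159 and 0.0920, so that starts were then lowest. With library totals in place of TMM factors they were 0.180, 0.191 and 0.182, and the order of the classes was thus not fixed. With counts halved they were 0.112, 0.126 and 0.186. The main values thus include counting error if both mates were counted, as the library totals make likely. Among the 137 peaks with at least 100 reads in each library, the median coefficient of variation was 8.88%, and 15 differed more than 1.5-fold between their highest and lowest replicate. None differed more than 2-fold. The widest was 81 bp before the end of evm.TU.ctg1621.12, with 2.13, 3.71 and 4.14 RPM.

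The 20 strongest peaks at 3' ends ranged from 7.24 to 44.9 RPM and held 17.5% of the signal of all 1161. Of these, 11 lay over the end base, 4 before it and 5 past it, and their widths ran from 496 to 3609 bp. The highest value fell in replicate 1, 2 and 3 for 5, 5 and 10 of them. A start peak was listed for 4 of the 20 genes. Within 5 kb of a contig edge, as defined above, lay 3 of the 20 peaks, and 2 of them lay near a first base. None of these genes has a product named in the sources used here, and they are given by identifier with positions on the ASM3288406v1 assembly.

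The strongest was that of evm.TU.ctg1796.1 on the minus strand, at bases 779 to 4387 of contig ctg1796. Its nearest edge lay 620 bp before the 3' end of the gene, which is at base 159 and so next to the contig's edge. It had 35.4, 42.4 and 56.8 RPM from 1876, 2409 and 4683 reads, with replicate 3 highest. A CV of 24.4% was among the largest of the 20, and the peak was merged from 38 summits.

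The next peak covered the end of evm.TU.ctg2707.1 on the plus strand, at bases 5430 to 7891 of ctg2707, with the gene at 1540 to 6409. It had 26.7, 24.4 and 27.5 RPM, and its replicates lay much closer together. This peak also lay within 1000 bp of another listed gene's 3' end. The peak over the end of evm.TU.ctg43.85 (bases 5809042 to 5811750 of ctg43, minus strand, gene 5811091 to 5815735) had 17.7, 19.0 and 18.7 RPM. Both genes were short, at 4.87 and 4.65 kb, and the peaks reached to within 3.89 and 3.99 kb of their starts. Neither had a peak listed over its start.

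Over the end of evm.TU.ctg4040.1 lay a peak of 13.3, 13.7 and 14.3 RPM (bases 24139 to 26400 of ctg4040, plus strand, gene end 26358), and 363 bp past the end a further peak had 6.37, 5.63 and 6.43 RPM. The peak of evm.TU.ctg664.10 over its end (bases 502446 to 503854 of ctg664, minus strand) had 12.8, 8.68 and 8.15 RPM, with replicate 1 apart from the others. The start peak of that gene had 16.1, 9.99 and 11.6 RPM, and there too replicate 1 was highest. This gene showed the largest CV of the 20, at 25.6%. At evm.TU.ctg110.8 the end and the start were nearly equal, with 8.73, 8.28 and 9.28 RPM over the end and 7.51, 8.02 and 7.99 RPM over the start. At evm.TU.ctg3094.1 the peak over the end had 11.9, 10.2 and 11.7 RPM and the start peak 4.60, 3.34 and 2.84 RPM. Its gene end at base 472 of ctg3094 is also close to the start of a contig.

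**Figure D5:**
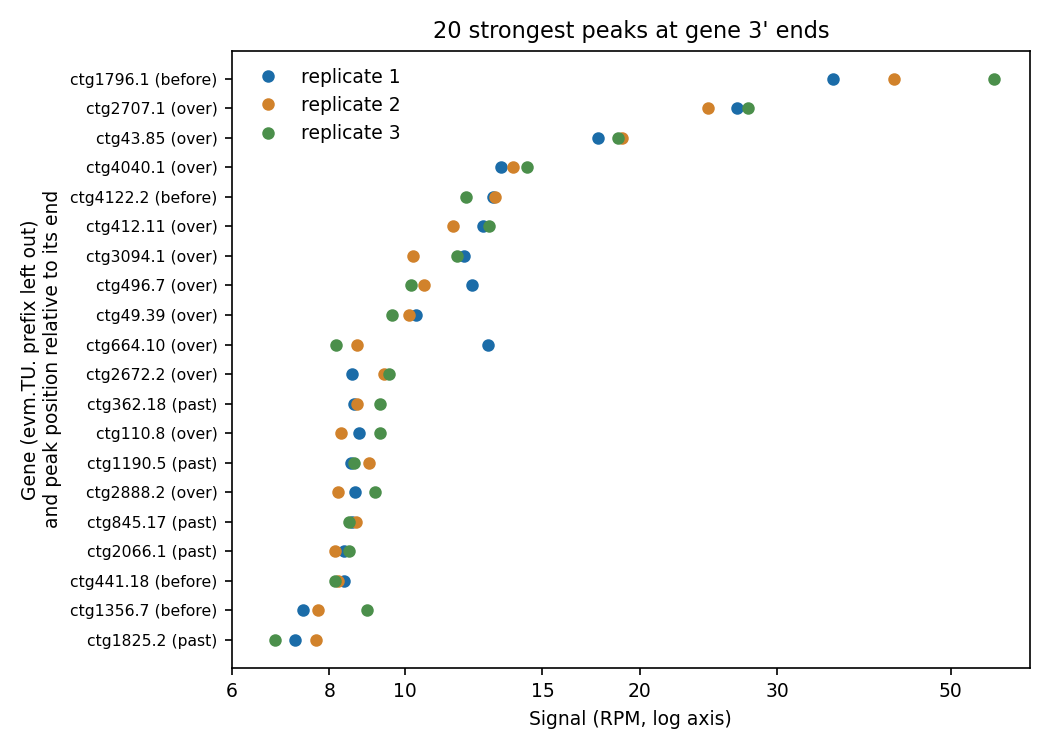
Signal (RPM, log axis) of the 20 strongest 3' end peaks in replicates 1, 2 and 3, with the gene and the position of the peak relative to the gene's end on the y axis. The replicates of most peaks lie close together, and ctg1796.1 from 35.4 to 56.8 RPM and ctg664.10 from 8.15 to 12.8 RPM spread the most.

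Peaks came in groups at some ends. A single peak was found at 860 genes, 2 at 138, 3 at 7 and 4 at 1 gene. The gene with 4 was evm.TU.ctg3050.1 (minus strand, end at base 3359 of ctg3050). From before the end to past it, its peaks had mean signals of 3.12 ± 0.336, 2.31 ± 0.168, 1.97 ± 0.195 and 2.64 ± 0.366 RPM (SD, n = 3), so all lay well above the median 3' end peak. At evm.TU.ctg2672.2 the peak over the end had 8.54, 9.39 and 9.55 RPM. Its companions had 5.32, 6.08 and 5.63 RPM 950 bp before the end and 3.94, 5.15 and 5.49 RPM 906 bp past it, lower in every replicate. At evm.TU.ctg2015.1 the peak 310 bp before the end, at 2.69 ± 0.313 RPM, was above those 248 and 846 bp past it, at 1.47 ± 0.179 and 1.70 ± 0.205 RPM.

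Among genes with an annotated process, the strongest 3' end peak belonged to evm.TU.ctg1103.1 (minus strand, end at base 654 of ctg1103). Its annotation lists homogentisate 1,2-dioxygenase, an enzyme that opens the ring of homogentisate in the breakdown of phenylalanine and tyrosine. The peak 553 bp before the end had 6.83, 6.01 and 5.85 RPM, and that over the end had 2.23, 2.41 and 2.63 RPM. The start peak of the gene was higher than either, at 16.8, 12.9 and 15.1 RPM. Another gene with the same annotation, evm.TU.ctg342.23, had 2.58, 2.27 and 2.57 RPM at a peak 897 bp before its end. The study listed annotated genes partly by their signal in these samples, so they are examples and no sample of all genes.

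The gene evm.TU.ctg2714.1 is annotated for protein flavinylation, the covalent attachment of flavin to a protein. The peak over its end had 6.66, 4.96 and 5.76 RPM, and that 865 bp before it 3.02, 2.29 and 2.27 RPM. Its start peak had 2.40, 1.02 and 1.44 RPM, below both 3' end peaks in every replicate. At evm.TU.ctg12.7, annotated as a protein kinase, the order was different, with 3.90, 2.60 and 3.02 RPM at a peak 395 bp before the end and 5.17, 2.81 and 3.29 RPM at the start. The carbohydrate metabolism gene evm.TU.ctg154.1 had 2.98, 2.29 and 2.21 RPM at 47 bp before the end and 7.11, 3.62 and 4.46 RPM at its start. Replicate 1 was the highest at all these peaks.

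The remaining annotated genes had no listed start peak. At evm.TU.ctg931.1, annotated for positive regulation of apoptosis, a peak 643 bp past the end had 3.92, 2.58 and 3.03 RPM. At evm.TU.ctg1085.1, annotated for nucleic acid binding, a peak over the end had 2.64, 2.57 and 2.26 RPM. The lipid metabolism gene evm.TU.ctg12.31 had 2.49, 1.97 and 2.05 RPM at 977 bp before its end. All 3 genes had peaks above background in every replicate.

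Of 21 genes that the study names as receptors, receptor candidates or genes of signal transduction, 2 had a peak at the 3' end. Among all listed genes over 3 kb, 996 of 10227 (9.74%) had one, a share close to 2 of 21. G-protein-coupled receptors are membrane proteins that pass outside signals to the inside of the cell. The receptor candidate evm.TU.ctg1716.2 had 0.943, 0.492 and 0.825 RPM at a peak over its end (bases 97450 to 97903 of ctg1716, minus strand), from 49, 27 and 67 reads. The signal transduction gene evm.TU.ctg275.1 had 0.754, 0.369 and 0.425 RPM at a peak 706 bp before its end (bases 785 to 989 of ctg275), from 39, 20 and 34 reads. Their means of 0.753 and 0.516 RPM lay above and below the median 3' end peak. Both were above background in 2 of the 3 replicates. At this depth their replicates spread widely, with CVs of 31.0% and 40.4%.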

How the data were processed

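Trimmed reads were mapped by the authors with BWA against the *Artemia franciscana* assembly ASM3288406v1. Mapping qualities of at least 13 were kept and duplicates and mitochondrial reads discarded. Peaks were called in MACS2 and assigned to genes in ChIPseeker. Reads that diverge from this related genome are lost, which lowers values there. The authors deposited raw read counts per merged peak and library. The deposited RPM values equal the count plus 1, scaled to a library total that was recovered from them. The sources used here do not state whether both mates were counted, or from which samples peaks were merged. The merged peaks outnumber the study's calls in these samples together, so some come from outside those calls. The recovered library totals lie close to the study's deduplicated reads if these are pairs and both mates were counted. Counting of both mates in the totals is therefore likely, and for the counts per peak it was not tested. Columns that belong to other samples numbered 0.

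Peak classes were compared in each library by medians of log2(RPM + 0.0691), a pseudocount of 0.1 times the median RPM over all peaks, so folds are on that scale. The 3 within-library differences were tested with an exact two-sided sign-flip permutation test, whose smallest p is 0.25. An SD over replicates does not cover the choice of peaks. The background span was the sum of the last listed positions of all contigs. The coefficient of variation came from edgeR 4.0.16 (intercept only, TMM factors) in R 4.3.3, and the rest from Python 3.11.15 with pandas 2.3.3 and scipy 1.17.1, tested on simulated data. Named genes were those of the 20 strongest peaks, the genes the study names, and those of the 10 strongest peaks with an annotated process in the study's supplement, from which only the terms were taken. Genes with extreme ratios, several peaks or lowest signal were chosen after their values were seen. Members and lists were chosen with earlier results of these data known. Alternatives changed the pseudocount, scaling to width, filters, window, gene sets, background and replicates. No genome was used here, so no sequence is given.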

Additional observations from a re-analysis of the deposited data

How the results depend on the processing

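The mean class differences kept their sign under every alternative computed, although single width classes did not. In the narrowest class (up to 234 bp) the difference from both gene body and past-end peaks was -0.05 ± 0.01. Without contig edges, the past-end difference of 0.01 ± 0.01 was within its SD (exact sign-flip permutation test, p = 1). The difference between peaks past and before the end was recomputed only per kb, at 0.08 ± 0.04. The share of 3' end peaks above background was 27.7% with the background 2 times higher (all merged peaks 24.9%), 40.7% with counts and background halved (38.0%), and 64.5% to 73.1% when a replicate was left out (61.3% to 70.8%). The coefficient of variation fell to 0.112 with counts halved and ran from 0.156 to 0.192 without a replicate. The ratio of replicate 1 at 3' ends ran from -0.0180 without replicate 2 to 0.0689 without replicate 3, and so had no fixed sign. The log2 difference from gene body peaks ran from 0.04 per kb to 0.18 with a window of 500 bp, that from past-end peaks from 0.01 without contig edges to 0.12 with 500 bp, and that from start peaks from -0.36 per kb to -1.31. A comparison with peaks near another gene's start gave no value, since there were none. Depth limits single peaks, since the median 3' end peak held 38 reads in replicate 1. No paired analysis was possible because no other group was there for the replicate numbers to pair with; peak classes were instead paired within each library.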
